A study of Mus musculus with 12 samples.

Results

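The genes described here carry out DNA replication and DNA repair. They were the rows of the estimated count table whose gene name matched a fixed set of replication and repair names (Mcm, Orc, Gins, Rfc, Rpa, Fanc, Brca, Rad5, Xrcc, Ercc and Msh families, the replicative polymerases and their partners) and whose counts summed to at least 120 over 12 libraries. Of 13404 rows, 69 matched by name and 67 passed the sum. Msh4 with 13.0 summed counts and Gins1 with 56.2 lay just outside, and Msh5 with 976 and Tyms with 1133 lay just inside. All 67 also passed the low-count filter of the test, which kept 9495 genes, so none was left out of what follows.

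Their transcripts were counted by poly(A) RNA sequencing of T cells sorted from the spleen of C57BL/6 mice: CD4+CD25+ regulatory T cells (Treg), which hold immune responses in check, and CD4+ conventional T cells (Tconv). Each cell type came from mice of 2 months labelled Dcaf1-deficient, from wild-type mice aged over 18 months, and from young wild-type mice of 2 months, with 2 libraries per group. How and in which cells Dcaf1 was deleted is not given in the sources used here, nor is the number of mice behind a library, so p-values measure the spread between these libraries, which may be technical. Dcaf1 encodes a substrate receptor of a cullin ubiquitin ligase. Its transcript (listed as Vprbp) was at 102 and 101 CPM in Dcaf1-deficient Treg, 105 and 127 in aged Treg, with 144 and 128 in young Treg, and at 132 and 132 in Dcaf1-deficient Tconv, 117 and 90.5 in aged Tconv and 147 and 144 in young Tconv. A count over the whole gene cannot show an exon deletion, so "Dcaf1-deficient" is used below as the label of the libraries.

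A replication origin is first licensed, when the origin recognition complex (ORC) and Cdc6 load the ring-shaped MCM helicase onto DNA. It fires when Cdc45 and the GINS complex join MCM, after which primase and the polymerases copy the strands and the sliding clamp Pcna holds the polymerases on DNA. Many of these genes are transcribed late in G1 and in S phase by E2F factors and are low in resting T cells, whereas most nucleotide excision repair and mismatch repair genes are expressed in resting cells too. In bulk RNA a larger share of cycling cells and more transcript per cell cannot be told apart.

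The libraries held 18358477 to 26852448 estimated counts, and levels below are read counts normalised to TMM-scaled library sizes (CPM), given for replicate 1 and then replicate 2. Several libraries stood apart from their group. Aged Treg 1 lay nearer to the mean of Dcaf1-deficient Treg than to aged Treg 2 for 57 of the 67 genes (85.1%), and for 7899 of all 9495 genes tested (83.2%). Transcripts of other blood cells moved with the same split. The summed level of the 6 of 8 macrophage markers in the table was 7017 and 8608 CPM in Dcaf1-deficient Treg, 5866 and 489 in aged Treg, with 83.7 and 2473 in young Treg. Tconv held less of them, with sums of 617 and 657 CPM (Dcaf1-deficient), 40.2 and 16.4 CPM (aged) and 12.95 and 169 CPM (young). No macrophage or B cell marker was at 0 in any library, and results in Treg are also given without young Treg 2 and aged Treg 1. Xist, which is transcribed from the inactive X chromosome, was at 1263 to 2018 CPM in Dcaf1-deficient Treg 2, both Dcaf1-deficient Tconv libraries, aged Treg 2 and aged Tconv 2, and at 1.37 to 2.94 CPM in the other 7. The part of sex in the results was not tested.

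Seen over all 12 libraries, the genes differed widely in how far they moved. The ratio of the highest to the lowest library had a median of 2.07 with quartiles of 1.53 and 3.53, and reached 25.7 for the origin firing factor Mcm10. It stayed under 1.5 for 16 genes and was 4 or more for another 16; Tyms, at 0 in 1 library, has no ratio. Dcaf1-deficient Treg 1 was the highest library for 25 of the 67 genes, and young Tconv 1 was the lowest for 22. Young Tconv 1 was at the same time the highest library for 10 genes, among them Ercc1, Ercc2, Ercc5, Ercc8, Msh3 and Msh5.

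**Figure D1:**
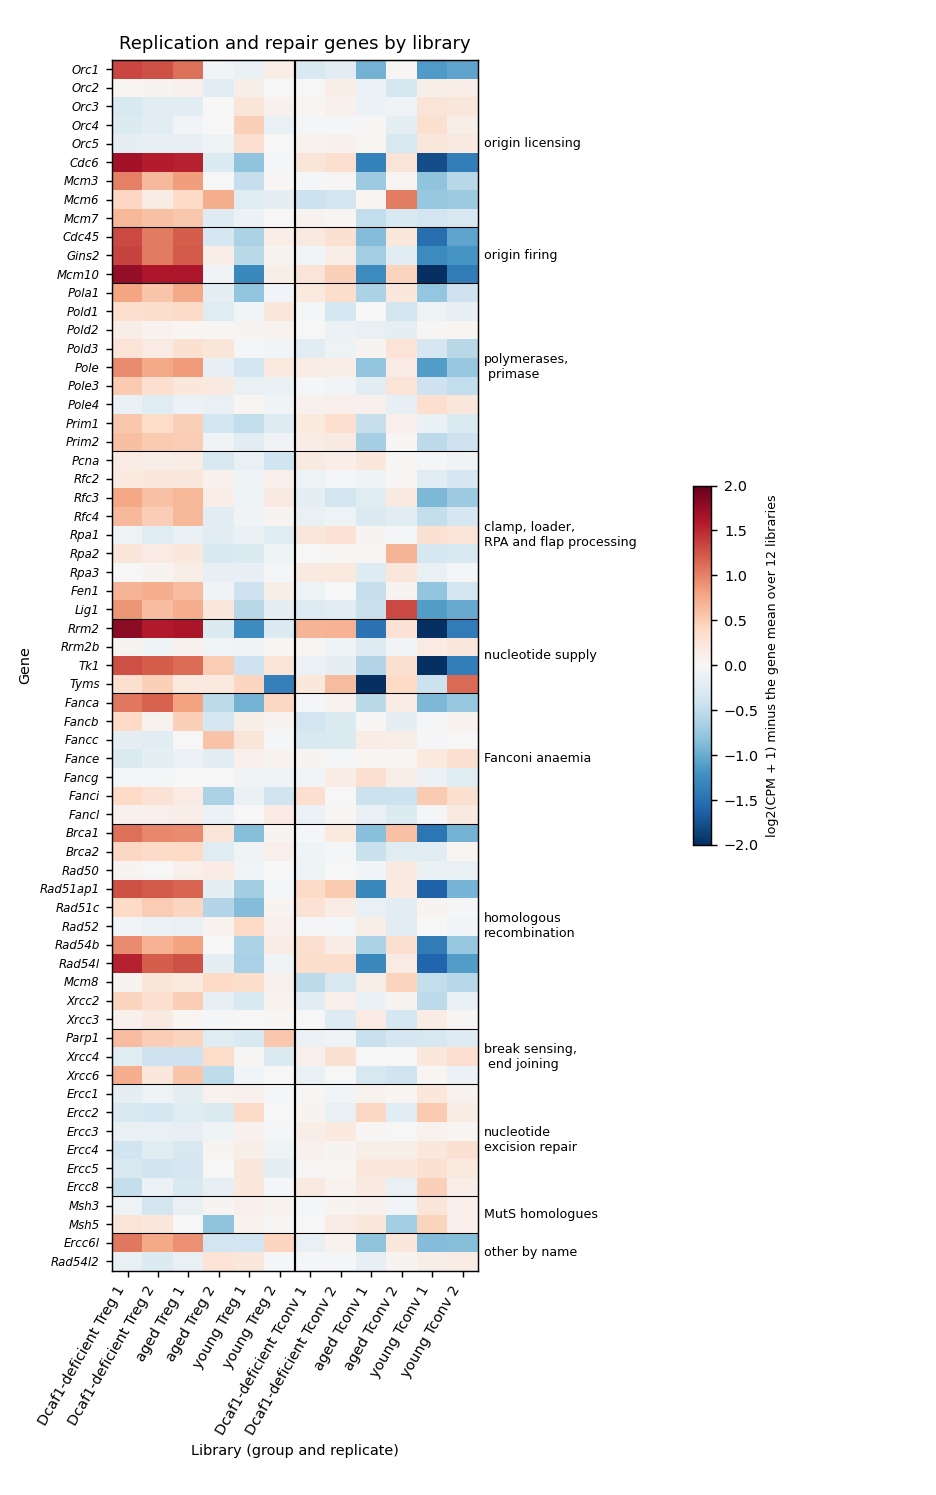
Level of 65 of the genes (rows, grouped by role) in each of the 12 libraries (columns), as log2(CPM + 1) minus the gene's mean over the libraries, with red above and blue below that mean and the color scale capped at both ends. The Dcaf1-deficient Treg libraries and aged Treg 1 are red for Cdc6, Mcm10, Rrm2 and Rad54l, where young Tconv 1 is deepest blue, while the nucleotide excision repair rows run the other way.

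Among the licensing genes, Cdc6 and Orc1 lay higher in Dcaf1-deficient Treg and the other ORC genes did not. Cdc6, the loader ATPase, was at 47.1 and 43.4 CPM in Dcaf1-deficient Treg, 42.5 and 11.4 in aged Treg, with 7.58 and 13.6 in young Treg. In Tconv it was at 16.6 and 17.6 CPM in Dcaf1-deficient Tconv, 4.83 and 16.97 in aged Tconv, with 3.38 and 4.73 in young Tconv. Both Dcaf1-deficient groups lay wholly above their young groups, and in each cell type 1 aged library was high and the other lay within or near the young range.

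Orc1, the ORC subunit whose level follows the cell cycle in mammals, was at 14.9 and 14.2 CPM in Dcaf1-deficient Treg, 12.5 and 5.11 in aged Treg, with 4.76 and 5.93 in young Treg. The difference of Dcaf1-deficient from young Treg was 1.45 (SE 0.50, edgeR adjusted p 0.155) on the log2 scale. Orc3, a core subunit, was at 99.02 and 106 CPM in Dcaf1-deficient Treg, 105 and 121 in aged Treg, with 146 and 129.6 in young Treg, so both Dcaf1-deficient libraries lay below both young ones (log2 difference -0.42 with an SE of 0.10, adjusted p by edgeR 0.131). Orc4 and Orc5 also lay lower, at -0.45 (SE 0.20, edgeR adjusted p 0.2) and -0.36 (SE 0.15, edgeR adjusted p 0.199), and Orc2 was at -0.01.

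The MCM helicase genes Mcm3, Mcm6 and Mcm7 differed from one another in which group was high. Mcm7 was at 229 and 215 CPM in Dcaf1-deficient Treg, 208 and 119.5 in aged Treg, with 132 and 144 in young Treg. Mcm3 had the same order, at 237 ± 43.2 CPM in Dcaf1-deficient Treg and 115 ± 26.8 CPM in young Treg (SD, n = 2 each), with aged Treg at 238 and 132 CPM. Mcm6 instead had its highest mean in the aged group of each cell type. It was at 353 and 294 CPM in Dcaf1-deficient Treg, 350.2 and 441 in aged Treg, with 223 and 231 in young Treg. Both aged Treg libraries lay above both young ones, and aged Treg 1 lay within the Dcaf1-deficient range. In Tconv Mcm6 was at 198 and 204 CPM in Dcaf1-deficient Tconv, 274 and 538 in aged Tconv, with 158 and 159 in young Tconv. It was higher in the aged than in the young group (log2 difference 1.36 with an SE of 0.28, adjusted p by edgeR 0.0307). Aged Tconv 2 lay far above aged Tconv 1.

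A larger share of the promoters of these genes than of all genes tested held a sequence that E2F factors are known to bind. RefSeq promoters (GRCm38.p6, 250 bases before the start to 50 after it) were found for 54 of the 67 genes and for 7461 of the genes tested. TTTCCCGC or TTTGGCGC, searched on both strands, occurred in 17 of the 54 (31.5%), against 237 of the 7461 (3.18%). CCAAT, a common promoter element counted the same way, occurred in 59.3% against 43.2%. Of the roles, 5 of 9 licensing genes and 4 of 7 polymerase and primase genes had an E2F-type match, and 0 of 5 nucleotide excision repair genes, 0 of 2 firing genes and 0 of 3 nucleotide supply genes did. The other roles had 1 of 8 (clamp, loader, RPA and flap processing), 1 of 7 (Fanconi anaemia), 3 of 8 (homologous recombination), 1 of 3 (break sensing and end joining) and 2 of 2 (MutS homologues). A match describes these letters and is not a measured binding site. Fancg and Orc3 had a match, and Rrm2 and Tk1 had none in this window, which says nothing of the factor. The 250 bases upstream of the RefSeq start of 5 genes are shown; for Mcm7 and Cdc6 they lie within the GENCODE M21 span of the gene, and for Fancg partly so. They are printed with the E2F-type match in capitals (GCGGGAAA and GCGCCAAA are the same motifs on the other strand). The genes are Mcm6 with its 2 matches (chr1:128359706-128359955, minus strand), Mcm7 (chr5:138171884-138172133, minus), Cdc6 (chr11:98907901-98908150, plus), the polymerase gene Pola1 (chrX:93632156-93632405, minus) and, as a gene with a match and steady levels in Treg, Fancg (chr4:43010302-43010551, minus).
Mcm6: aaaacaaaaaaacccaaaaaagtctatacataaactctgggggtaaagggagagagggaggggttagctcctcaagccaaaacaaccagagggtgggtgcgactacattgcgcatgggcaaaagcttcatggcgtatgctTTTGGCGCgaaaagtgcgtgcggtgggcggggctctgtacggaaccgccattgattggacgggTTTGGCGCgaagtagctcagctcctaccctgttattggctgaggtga
Mcm7: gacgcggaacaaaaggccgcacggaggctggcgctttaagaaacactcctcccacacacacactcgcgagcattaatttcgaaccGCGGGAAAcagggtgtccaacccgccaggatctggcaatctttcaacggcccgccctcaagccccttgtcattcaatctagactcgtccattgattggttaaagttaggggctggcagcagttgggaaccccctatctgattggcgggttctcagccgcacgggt
Cdc6: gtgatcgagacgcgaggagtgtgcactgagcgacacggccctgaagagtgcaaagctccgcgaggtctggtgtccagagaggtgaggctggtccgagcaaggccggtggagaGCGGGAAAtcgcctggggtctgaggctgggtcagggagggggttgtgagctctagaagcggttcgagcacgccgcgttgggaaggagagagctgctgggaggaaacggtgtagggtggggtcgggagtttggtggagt
Pola1: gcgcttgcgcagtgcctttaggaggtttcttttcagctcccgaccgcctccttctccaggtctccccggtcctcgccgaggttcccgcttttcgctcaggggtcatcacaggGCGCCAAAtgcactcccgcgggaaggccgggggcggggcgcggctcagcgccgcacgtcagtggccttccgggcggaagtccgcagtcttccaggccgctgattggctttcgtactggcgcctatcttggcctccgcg
Fancg: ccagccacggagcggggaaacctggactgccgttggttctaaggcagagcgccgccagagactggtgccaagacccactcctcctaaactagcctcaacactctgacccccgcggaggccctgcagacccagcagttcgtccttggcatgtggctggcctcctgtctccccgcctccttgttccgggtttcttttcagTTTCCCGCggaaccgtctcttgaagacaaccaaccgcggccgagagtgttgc

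The 3 origin firing genes spread widely between libraries. Mcm10, which helps to activate the helicase, was at 39.9 and 35.97 CPM in Dcaf1-deficient Treg, 35.9 and 10.5 in aged Treg, with 3.91 and 12.03 in young Treg. In Tconv it was at 13.4 and 15.7 CPM in Dcaf1-deficient Tconv, 3.999 and 15.4 in aged Tconv, with 1.55 and 3.58 in young Tconv. Dcaf1-deficient libraries lay above young ones in both cell types, and the aged pair was split.

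Cdc45, a helicase subunit, was at 39.2 ± 5.798 CPM in Dcaf1-deficient Treg and 14.3 ± 5.56 CPM in young Treg (SD, n = 2 each), with a log2 fold change of 1.45 (SE 0.58, edgeR adjusted p 0.178). Gins2, a GINS subunit, was at 17.9 ± 2.77 CPM in Dcaf1-deficient Treg and 6.07 ± 1.998 CPM in young Treg, with a log2 fold change of 1.56 (SE 0.43, edgeR adjusted p 0.133). It shares 2758 exon bases with the opposite-strand gene Gse1, so its own share of these counts is uncertain. Summed over the role, the level was 103 and 86.98 CPM in Dcaf1-deficient Treg, 94.1 and 31.6 in aged Treg, with 18.97 and 37.8 in young Treg.

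Among the polymerases and primase, the catalytic subunits of the initiating and leading-strand enzymes varied most. Pola1, the catalytic subunit of polymerase alpha, was at 62.4 and 52.6 CPM in Dcaf1-deficient Treg, 60.99 and 31.1 in aged Treg, with 20.1 and 34.3 in young Treg, and Pole, that of polymerase epsilon, was at 70.9 and 62.7 CPM in Dcaf1-deficient Treg, 66.8 and 32.6 in aged Treg, with 27.9 and 41.9 in young Treg. The primase genes Prim1 and Prim2 had log2 fold changes of 0.85 (SE 0.30, edgeR adjusted p 0.158) and 0.74 (SE 0.27, edgeR adjusted p 0.161) between Dcaf1-deficient and young Treg. Pold2, an accessory subunit of polymerase delta, stayed between 43.0 and 54.1 CPM in every library.

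Pold3, another subunit of polymerase delta that also serves break-induced replication, was at 93.3 and 85.7 CPM in Dcaf1-deficient Treg, 94.8 and 91.2 in aged Treg, with 74.3 and 74.04 in young Treg, and at 65.3 and 71.4 CPM in Dcaf1-deficient Tconv, 79.4 and 93.1 in aged Tconv, with 60.5 and 52.1 in young Tconv. Aged libraries lay above young ones in both cell types. In Tconv the difference of aged from young passed the test (log2 difference 0.62 with an SE of 0.12, adjusted p by edgeR 0.026). In Treg the age difference was 0.33 (SE 0.12, edgeR adjusted p 0.225) on the log2 scale, and that of Dcaf1-deficient from young Treg was 0.27 (SE 0.12, edgeR adjusted p 0.201).

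Of the clamp, clamp loader, single-strand binding and flap processing genes, Lig1, the ligase that seals Okazaki fragments, ranged furthest. It was at 145 and 119.8 CPM in Dcaf1-deficient Treg, 129.8 and 91.1 in aged Treg, with 52.7 and 68.9 in young Treg, and at 64.5 and 66.9 CPM in Dcaf1-deficient Tconv, 56.9 and 196 in aged Tconv, with 35.3 and 38.01 in young Tconv. Aged Tconv 2 was the highest library. The age difference in Tconv was 1.79 (SE 0.49, edgeR adjusted p 0.0591) on the log2 scale. Without aged Tconv 1 that difference was 2.42 and passed the test.

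Pcna itself was at 375 ± 9.86 CPM in Dcaf1-deficient Treg and 282 ± 36.3 CPM in young Treg (SD, n = 2 each; log2 difference 0.41 with an SE of 0.16, adjusted p by edgeR 0.178), and 2 annotated pseudogenes, Pcna-ps1 and Pcna-ps2, make its count uncertain. Rfc3, a clamp loader subunit, was at 39.9 and 35.1 CPM in Dcaf1-deficient Treg, 37.2 and 25.3 in aged Treg, with 21.6 and 26.4 in young Treg, and at 20.1 and 17.6 CPM in Dcaf1-deficient Tconv, 19.2 and 26.3 in aged Tconv, with 11.9 and 13.5 in young Tconv. Each Treg group lay above the young Tconv group. Rpa1, the large subunit of the single-strand binding protein RPA, ran the other way, at 275 and 249 CPM in Dcaf1-deficient Treg, 270.4 and 252 in aged Treg, with 270.4 and 249 in young Treg and at 348 and 362 CPM in Dcaf1-deficient Tconv, 308 and 287 in aged Tconv, with 367 and 354 in young Tconv, so every Tconv library lay above every Treg library.

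Nucleotide supply held the gene with the largest difference between Dcaf1-deficient and young Treg. Rrm2, the S-phase subunit of ribonucleotide reductase, was at 209 and 181 CPM in Dcaf1-deficient Treg, 187 and 49.2 in aged Treg, with 24.4 and 48.9 in young Treg. In Tconv it was at 95.8 and 97.3 CPM in Dcaf1-deficient Tconv, 20.8 and 73.3 in aged Tconv, with 14.1 and 21.9 in young Tconv. The log2 fold changes of Dcaf1-deficient from young cells were 2.41 (SE 0.75, edgeR adjusted p 0.144) in Treg and 2.42 (SE 0.75, edgeR adjusted p 0.421) in Tconv.

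Rrm2b, the subunit that supplies nucleotides outside S phase under p53, stayed between 49.3 and 69.3 CPM. Tk1, the S-phase thymidine kinase, was at 82.6 and 77.7 CPM in Dcaf1-deficient Treg, 72.6 and 47.4 in aged Treg, with 24.4 and 39.7 in young Treg, and at 30.5 and 28.9 CPM in Dcaf1-deficient Tconv, 21.7 and 41.3 in aged Tconv, with 7.46 and 12.1 in young Tconv. Dcaf1-deficient libraries were above young ones in both cell types. In Tconv Tk1 was higher in the aged than in the young group (log2 difference 1.69 with an SE of 0.40, adjusted p by edgeR 0.0422). Tyms, thymidylate synthase, was between 0 and 9.02 CPM with no order by group, and an annotated pseudogene, Tyms-ps, makes its count uncertain.

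**Figure D2:**
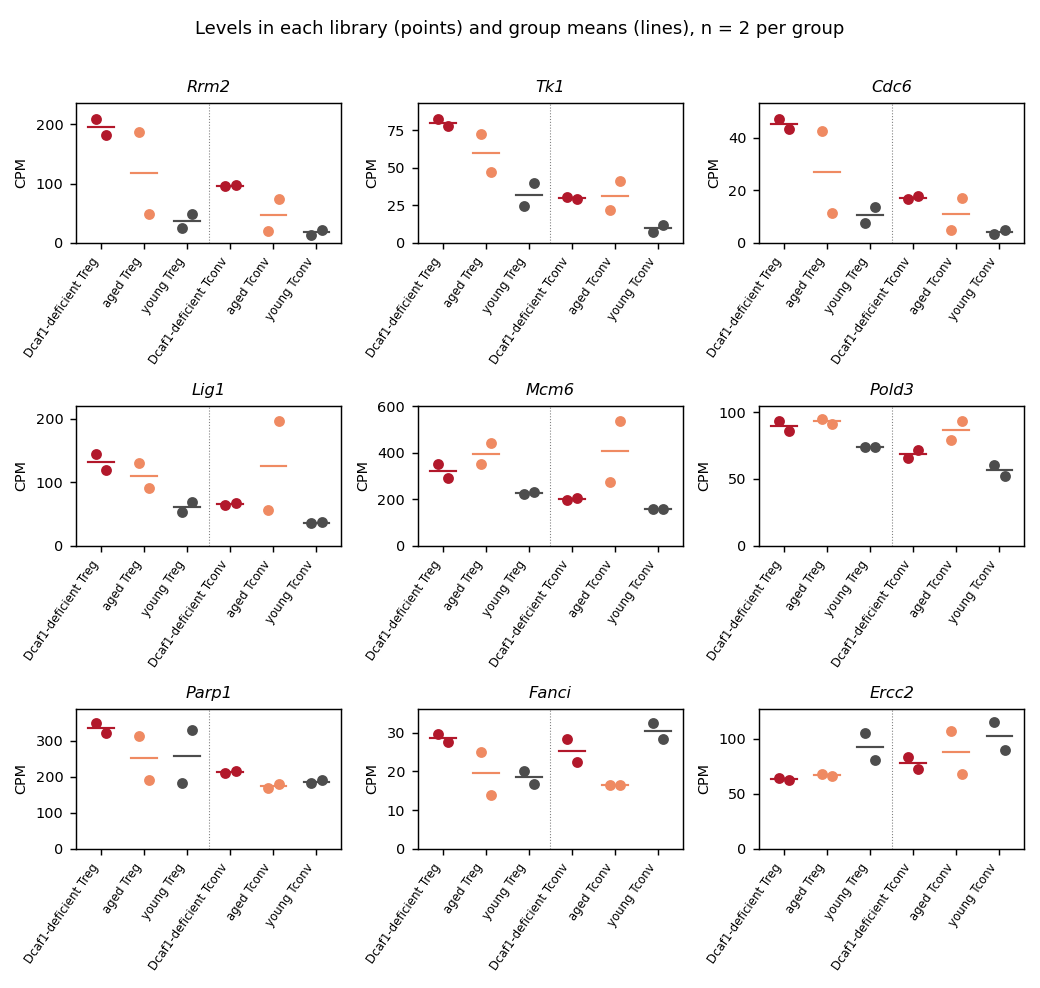
CPM of 9 genes (linear axis from 0) in each library, with points for the 2 libraries of a group and a line for their mean. Rrm2, Tk1 and Cdc6 are high in both Dcaf1-deficient Treg libraries and split in the aged pairs, with Rrm2 in aged Treg 1 between the 2 Dcaf1-deficient Treg libraries, Lig1 and Mcm6 reach 196 and 538 CPM in aged Tconv 2, and Ercc2 is lowest in Dcaf1-deficient and aged Treg.

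The Fanconi anaemia genes, which repair crosslinks between DNA strands, did not move as one group. Fanca, a core complex subunit, was at 31.9 and 34.8 CPM in Dcaf1-deficient Treg, 26.5 and 10.03 in aged Treg, with 7.204 and 19.99 in young Treg. The Dcaf1-deficient libraries were above all others here, and the young replicates differed by more than the aged and young means did. Fancg, another core subunit, was at 33.7 and 33.7 CPM in Dcaf1-deficient Treg, 34.9 and 34.8 in aged Treg, with 32.8 and 32.8 in young Treg.

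Fanci, which the core complex ubiquitinates together with its partner, was at 29.7 and 27.5 CPM in Dcaf1-deficient Treg, 25.1 and 14.04 in aged Treg, with 20.2 and 16.7 in young Treg and at 28.4 and 22.4 CPM in Dcaf1-deficient Tconv, 16.4 and 16.4 in aged Tconv, with 32.6 and 28.3 in young Tconv. In Tconv it was thus lower in both aged libraries than in every other Tconv library (log2 difference -0.89 with an SE of 0.27, adjusted p by edgeR 0.0791), although it shares 921 exon bases with the opposite-strand gene Polg. Fancc, also of the core complex, was at 25.7 and 24.8 CPM in Dcaf1-deficient Treg, 28.998 and 43.7 in aged Treg, with 34.9 and 28.3 in young Treg. The role's summed level covered a narrow range, from 149 CPM in aged Treg 2 to 174 in Dcaf1-deficient Treg 1.

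In homologous recombination, which repairs breaks from the sister chromatid, Rad54l and Brca1 varied widely between libraries and the break-binding gene Rad50 little. Rad54l, a motor protein of strand exchange, was at 24.9 ± 4.03 CPM in Dcaf1-deficient Treg and 6.92 ± 2.202 CPM in young Treg (SD, n = 2 each), and shares 1184 exon bases with Lrrc41 on the other strand. Brca1 was at 46.8 and 42.4 CPM in Dcaf1-deficient Treg, 41.9 and 25.7 in aged Treg, with 11.3 and 22.2 in young Treg, and Brca2, which acts in strand exchange, was at 25.02 ± 0.474 CPM in Dcaf1-deficient Treg and 18.96 ± 1.58 CPM in young Treg.

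Rad50, part of the complex that binds broken ends, stayed between 78.8 and 99.7 CPM. Mcm8, a helicase of recombination and not of the replication ring, had an order of its own, at 18.2 and 20.9 CPM in Dcaf1-deficient Treg, 19.99 and 23.4 in aged Treg, with 22.5 and 18.5 in young Treg and at 11.8 and 13.7 CPM in Dcaf1-deficient Tconv, 18.9 and 24.001 in aged Tconv, with 12.2 and 11.4 in young Tconv. In Treg the 3 groups overlapped or nearly so. In Tconv Mcm8 was higher in the aged than in the young group (log2 difference 0.86 with an SE of 0.20, adjusted p by edgeR 0.0427). It lay close to the young level in the Dcaf1-deficient group. Rad52 was highest in young Treg 1, at 44.8 CPM.

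The 3 genes of break sensing and end joining did not pass the test in any comparison of all 12 libraries. Parp1, which senses strand breaks, was at 351 and 322 CPM in Dcaf1-deficient Treg, 312 and 192 in aged Treg, with 184 and 332 in young Treg. Its replicates were split in young and aged Treg, where the same split separated the B cell markers: 5 of 6 were in the table, and their sum was 1833 and 1938 CPM in Dcaf1-deficient Treg, 1566 and 63.7 in aged Treg, with 57.7 and 1954 in young Treg. The part of other cells in the Parp1 level was not tested. Xrcc6, the Ku70 subunit, was at 111 and 77.7 CPM in Dcaf1-deficient Treg, 98.6 and 46.7 in aged Treg, with 64.03 and 66.9 in young Treg.

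Nucleotide excision repair, which removes bulky lesions such as ultraviolet damage, was lower in the libraries where the firing genes were highest. All 6 genes had negative log2 fold changes in Dcaf1-deficient against young Treg and in aged against young Treg, none of which passed the test. Ercc2, a helicase of the repair and transcription factor TFIIH, was at 64.3 and 62.5 CPM in Dcaf1-deficient Treg, 67.8 and 66.3 in aged Treg, with 105 and 80.7 in young Treg (log2 difference -0.55 with an SE of 0.23, adjusted p by edgeR 0.189). Ercc4 and Ercc5, the nucleases that cut on either side of the lesion, had log2 fold changes of -0.34 (SE 0.14, edgeR adjusted p 0.189) and -0.39 (SE 0.17, edgeR adjusted p 0.196). The role's summed level was 297 and 303 CPM in Dcaf1-deficient Treg, 303 and 345 in aged Treg, with 416 and 346 in young Treg. T cell markers, 6 of 8 in the table, had the same low libraries, with sums of 2715 and 2401 CPM in Dcaf1-deficient Treg, 2957 and 6107 in aged Treg, with 5097 and 3564 in young Treg. No T cell marker was at 0, and their part in the repair levels was not tested.

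Of the MutS homologues, Msh3, which recognises larger loops of mispaired bases, had a log2 fold change of -0.32 (SE 0.13, edgeR adjusted p 0.185) between Dcaf1-deficient and young Treg. Msh5, which acts in meiosis, was between 1.61 and 5.21 CPM.

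Ercc6l and Rad54l2 match by name only. Ercc6l, known as the mitotic helicase PICH, was at 28.1 and 22.8 CPM in Dcaf1-deficient Treg, 25.5 and 9.76 in aged Treg, with 9.79 and 17.8 in young Treg. Rad54l2, a chromatin remodeller, was at 98.5 and 90.3 CPM in Dcaf1-deficient Treg, 98.3 and 132 in aged Treg, with 127 and 107 in young Treg.

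Dcaf1-deficient and young Treg were compared to ask how the label moves these genes in mice of one age. The median log2 fold change of the 67 genes was 0.39, beside -0.01 over all genes tested, and 47 of 67 were above 0. Rrm2, Mcm10, Cdc6, Rad54l and Gins2 were among those with the highest values, from 2.41 to 1.56, which are 5.33-fold to 2.95-fold. EdgeR's quasi-likelihood test called 0 of them at an adjusted p of 0.05, and 0% of all genes in either direction. At an unadjusted p under 0.05 there were 24 higher and 9 lower members, against 10.6% and 14.3% of all genes. DESeq2 called 12 members, 11 higher and 1 lower (6.16% and 5.97% of all genes). Among the higher ones were Cdc6, Orc1, Mcm3 and Mcm7 of licensing, Gins2 and Mcm10 of firing, Pole3, Rrm2, Tk1 and Rad54l, with Rrm2 at 2.45 (DESeq2 adjusted p 0.00953) and Cdc6 at 2.14 (DESeq2 adjusted p 0.0284), while Orc3 was the lower one at -0.38 (DESeq2 adjusted p 0.00545). Groups did not overlap for 40 higher and 16 lower members, against 35.2% and 36.9% of all genes.

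Without young Treg 2 and aged Treg 1, edgeR called 20 members, 15 higher and 5 lower, against 12.5% and 10.2% of all genes in that fit. Among the higher ones were Rrm2 at 3.01 (SE 0.75, edgeR adjusted p 0.0371), Mcm10 at 3.28 (SE 0.91, edgeR adjusted p 0.0476), Fanca at 2.22 (SE 0.35, edgeR adjusted p 0.0143) and Parp1 at 0.88 (SE 0.10, edgeR adjusted p 0.0081). Ercc4, Ercc5, Orc3, Orc4 and Rad54l2 were the lower ones, with Ercc5 at -0.59 (SE 0.11, edgeR adjusted p 0.0195). Young Treg then holds 1 library, assumed to vary like the other groups. Young Treg 2 had sums of 1954 CPM for B cell and 2473 for macrophage markers, against 57.7 and 83.7 in young Treg 1. In Dcaf1-deficient Treg they were 1833 and 1938 (B cell) and 7017 and 8608 (macrophage), so leaving out young Treg 2 widened both differences. Parp1 was at 332 CPM in young Treg 2 and at 351 and 322 in Dcaf1-deficient Treg. The part of these cells in the calls was not tested. Leaving out either aged Treg library alone led to 1 call, of Mcm7, at 0.69, with 0.266% to 0.267% of all genes called higher. Erythroid markers, 7 of 10 in the table, moved with this comparison, with sums of 4173 and 9443 CPM in Dcaf1-deficient Treg, 3517 and 111 in aged Treg, with 21.6 and 1173 in young Treg, with none at 0 in these libraries, and their part in it was not tested.

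**Figure D3:**
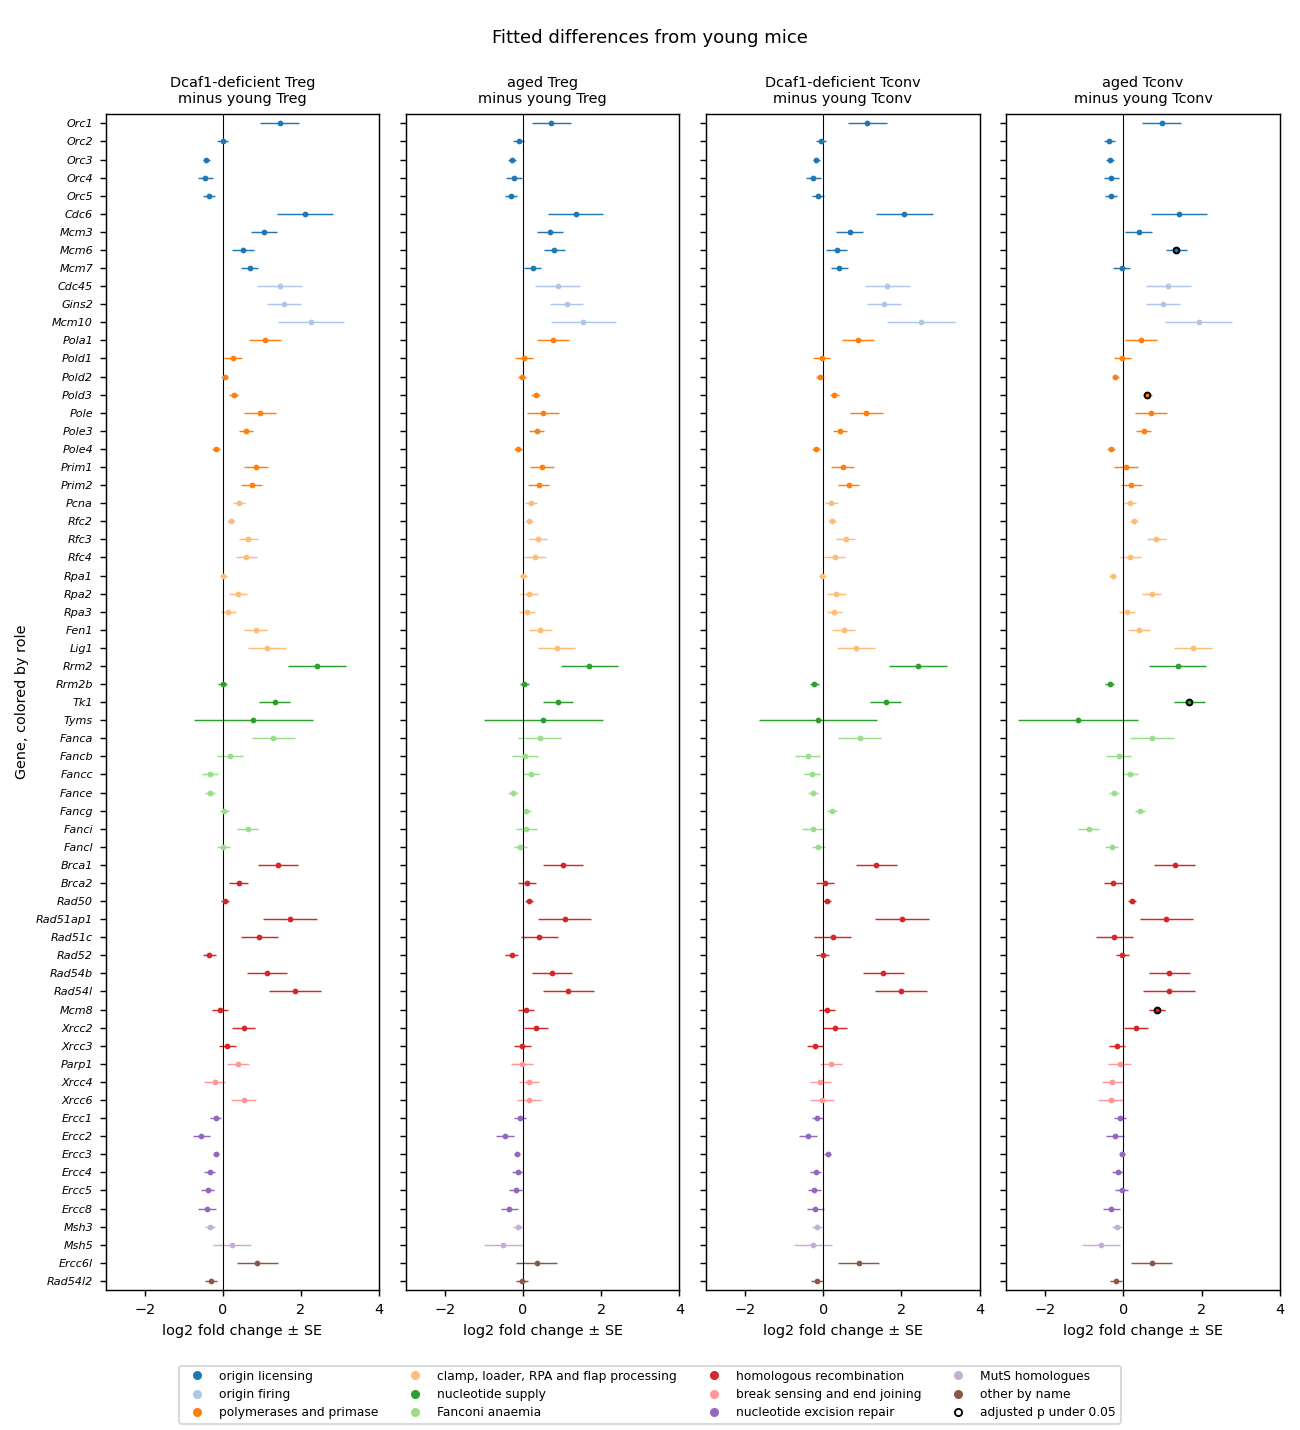
Fitted log2 fold change (x axis, with the standard error as bars) of the same 65 genes (rows, colored by role) of Dcaf1-deficient and aged against young cells in Treg and in Tconv, from 1 edgeR fit of 12 libraries. Firing and nucleotide supply genes reach above 2 in both Dcaf1-deficient panels, all 6 nucleotide excision repair genes lie below 0 in both Treg panels, and ringed points mark the 4 called genes, all in aged against young Tconv.

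Aged and young Treg were compared to ask how these genes follow age, with the young libraries shared with the comparison above. The median was 0.15 on the log2 scale, beside 0.02 for all genes. EdgeR called 0 members and 0% of all genes, DESeq2 called 0 members against 4.48% higher and 3.03% lower of all genes, and 5 higher and 2 lower members had an unadjusted p under 0.05 (8.87% and 9% of all genes). The smallest p belonged to Mcm6, with 0.80 (SE 0.28, edgeR adjusted p 0.209), which passed when either aged Tconv library was left out (0.432% to 0.461% of all genes called higher). Groups did not overlap for 12 higher and 12 lower members, against 20.2% and 22.4% of all genes. The value rested on aged Treg 1: the median was -0.04 without it and 0.39 without aged Treg 2. Without both it and young Treg 2 the median was 0.02, and edgeR called 0 members, against 1.77% of all genes higher and 0.728% lower. Between the single libraries aged Treg 2 and young Treg 1, 10 members were over 1.5-fold higher and 2 lower, against 19.9% and 10.3% of all genes.

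Dcaf1-deficient and aged Treg were compared to set the label beside age. Fancc had the smallest p, at 25.2 ± 0.638 CPM in Dcaf1-deficient Treg and 36.3 ± 10.4 CPM in aged Treg (SD, n = 2 each; log2 difference -0.53 with an SE of 0.20, adjusted p by edgeR 0.635). Fanci, Mcm7 and Fanca lay higher in Dcaf1-deficient Treg, at 0.55, 0.44 and 0.87 on the log2 scale, and did not pass. EdgeR and DESeq2 each called 0 members (edgeR 0% of all genes, DESeq2 0.0105% higher and 0.653% lower), and 1 lower member had an unadjusted p under 0.05 (1.12% of all genes higher, 6.28% lower). Groups did not overlap for 17 higher and 5 lower members, against 26.1% and 22.8% of all genes. The median was 0.23, beside 0.0024 for all genes. It was -0.01 without aged Treg 2 and 0.51 without aged Treg 1, where 4 higher and 1 lower members were called, against 3.13% and 6.93% of all genes. Without both young Treg 2 and aged Treg 1 it was 0.55, with 8 higher and 2 lower called, against 8.72% and 8.64%.

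Between aged and young Tconv edgeR called 4 genes, all higher in the aged group. Pold3 was at 86.3 ± 9.67 CPM in aged Tconv, against 56.3 ± 5.91 CPM in young Tconv (SD, n = 2 each). Mcm6 was at 406 ± 187 CPM in aged Tconv, against 158 ± 1.34 CPM in young Tconv, with a wide spread between the aged libraries. Tk1 was at 31.5 ± 13.9 CPM in aged Tconv, against 9.78 ± 3.28 CPM in young Tconv. Mcm8 was at 21.5 ± 3.58 CPM in aged Tconv, against 11.8 ± 0.572 CPM in young Tconv. These were 4 higher and 0 lower members by edgeR, against 6.38% and 2.47% of all genes, so the share of members called was near that of all genes. Limma on the deposited log2 values called 4 higher and 0 lower, against 5.59% and 3.1%. DESeq2 called 9 higher and 5 lower, against 12.9% and 8.48%. Among its further higher ones were Lig1, Rfc3, Rpa2 and Fancg, with Lig1 at 1.77 (DESeq2 adjusted p 0.00275), and its lower ones were Fanci, Orc3, Rpa1, Pole4 and Rrm2b, with Fanci at -0.91 (DESeq2 adjusted p 0.0203) and Orc3 at -0.35 (DESeq2 adjusted p 0.00458). The median log2 fold change was 0.09, against -0.0017 for all genes. Groups did not overlap for 25 higher and 21 lower members, against 29.9% and 29.1%.

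These 4 calls depended on which libraries set the spread. No member was called without aged Tconv 2, without either young Tconv library or without any 1 of the 4 Dcaf1-deficient libraries, nor in the 6 Tconv libraries alone, and 11 higher and 2 lower were called without aged Tconv 1, against 14.2% and 9.73% of all genes in that fit. Aged Tconv 2, 1 of 2 libraries with the tag L3 in their titles, was high for Mcm6, Lig1 and Tk1 and for the mitosis markers, 7 of 12 of which were in the table, with sums of 108 and 383 CPM in aged Tconv and 69.7 and 141 in young Tconv. Xist was at 1263 CPM in aged Tconv 2, 2.94 in aged Tconv 1, and 2.39 and 2.64 in young Tconv. Tag, sex and this library therefore cannot be told apart here. Treg markers also moved with this comparison. All 4 listed were in the table with none at 0, and they summed to 2129 and 3151 CPM in aged Tconv and 336 and 409 in young Tconv. Foxp3, the factor that defines Treg, was at 334 and 675 CPM in aged Tconv and 47.7 and 78.4 in young Tconv, and 3 of the 4 had a log2 fold change above 0. The other 1, Il2ra, which encodes CD25, was at 43.1 and 29.7 CPM in aged Tconv and 31.8 and 63.2 in young Tconv. Their part in it was not tested.

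Dcaf1-deficient and young Tconv ask the same of the label in conventional cells. Mcm10, Rrm2, Cdc6 and Rad54l had log2 fold changes from 2.51 to 2.00. Rrm2 was at 96.6 ± 1.05 CPM in Dcaf1-deficient Tconv and 18.01 ± 5.56 CPM in young Tconv (SD, n = 2 each). The 2 Dcaf1-deficient Tconv libraries were the closest pair of all libraries over the genes tested (median absolute log2 difference 0.09). Whether they come from separate mice is not given. EdgeR called 0 members and 0% of all genes, and 15 higher and 0 lower members had an unadjusted p under 0.05, against 5.76% and 4.29% of all genes. Limma called 0 members (0.0421% of all genes higher, 0.0316% lower). DESeq2 called 3 higher (1.61% of all genes), among them Tk1 at 1.61 (DESeq2 adjusted p 0.00994) and Rrm2 at 2.43 (DESeq2 adjusted p 0.0246). The median was 0.20, beside -0.0011 for all genes. Groups did not overlap for 36 higher and 17 lower members, against 34.2% and 32.7%. Mitosis markers summed to 543 and 577 CPM in Dcaf1-deficient Tconv and 69.7 and 141 in young Tconv. The 7 erythroid markers summed to 1181 and 1199 CPM in Dcaf1-deficient Tconv and 10.3 and 95.1 in young Tconv, where 1 was at 0 in each library. Neutrophil markers, 6 of 7 in the table, summed to 45.8 and 50.05 CPM in Dcaf1-deficient Tconv and 0.188 and 2.92 in young Tconv, where 4 and 1 were at 0. The part of these cells in the comparison was not tested. Xist was high in both Dcaf1-deficient Tconv libraries and low in both young ones, so here sex and label cannot be told apart.

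Between Dcaf1-deficient and aged Tconv the smallest p-values belonged to genes that were higher in aged than in young Tconv. Mcm8 was at -0.75 (SE 0.20, edgeR adjusted p 0.0816) on the log2 scale, Mcm6 at -1.02 (SE 0.28, edgeR adjusted p 0.0846) and Pold3 at -0.34 (SE 0.12, edgeR adjusted p 0.153). EdgeR called 0 members, against 0.695% of all genes higher and 2.38% lower, and 2 higher and 3 lower members had an unadjusted p under 0.05 (8.24% and 14.1% of all genes). DESeq2 called Mcm6 and Mcm8 lower and Rpa1 higher, against 9.36% and 5.5% of all genes.

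Treg and Tconv were compared within each group, as unpaired libraries, to show what the cell type carries. In young mice Tk1 was at 32.1 ± 10.8 CPM in young Treg and 9.78 ± 3.28 CPM in young Tconv (SD, n = 2 each; log2 difference 1.71 with an SE of 0.40, adjusted p by edgeR 0.097), Rfc3 at 0.92 (SE 0.24, edgeR adjusted p 0.137), Mcm8 at 0.79 (SE 0.20, edgeR adjusted p 0.128) and Rpa1 at -0.47 (SE 0.09, edgeR adjusted p 0.0642) on the log2 scale. EdgeR called 0 members, against 0.495% of all genes higher and 0.305% lower, and an unadjusted p under 0.05 was reached by 8 higher and 4 lower members (7.99% and 6.3% of all genes). By DESeq2, Tk1, Mcm8 and Rfc3 were called higher and Rpa1 lower, against 3.99% and 2.9%. Rpa1 passed in edgeR when any 1 aged library was left out, where 1.02% to 1.26% of all genes were called lower. In aged mice edgeR again called 0 members (0.295% of all genes higher, 0.527% lower), with 4 higher and 1 lower at an unadjusted p under 0.05 (9.31% and 9.62%), and DESeq2 called 1 higher, Gins2, and 1 lower (5.73% and 4.38%).

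In the Dcaf1-deficient groups edgeR called 0 members higher and 1 lower, against 0.874% and 1.35% of all genes. Rpa1 was at -0.44 (SE 0.09, edgeR adjusted p 0.0567), Rfc3 at 0.99 (SE 0.24, edgeR adjusted p 0.0715) and Ercc3 at -0.32 (SE 0.08, edgeR adjusted p 0.0755). DESeq2 called 7 higher and 4 lower, against 7.7% and 7.51%. Among the higher were Orc1, Tk1, Gins2 and Rfc3, and among the lower Rpa1 and Ercc3. Without young Treg 2 and aged Treg 1, edgeR called 9 higher and 6 lower, against 9.18% and 6.07%. Leaving out any 1 aged library led to 7 calls, where 2.74% to 3.45% of all genes were called higher and 4.35% to 5.13% lower, and 0 were made without any 1 of the other 8 libraries. The title tag is L4 in both of these Treg libraries and L5 in both Tconv libraries, so within this comparison tag and cell type cannot be told apart. No member was called with a term for the tag, with RLE scaling, without the low-count filter, by limma or with a replicate block.

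Whether the effects of age or of the label differed between the cell types was tested with interaction terms, and edgeR and DESeq2 called 0 members in either (edgeR 0% of all genes, DESeq2 0.337% higher and 1.03% lower for age and 0.0105% higher for the label). For age, 2 members above 0 and 1 below had an unadjusted p under 0.05, against 2.13% and 4.35% of all genes, with Mcm8 at -0.78 and Fanci at 0.98 (age effect in Treg minus that in Tconv, log2). For the label, 1 above and 1 below had one, against 1.21% and 1.53%, with Fanci at 0.89 and Ercc3 at -0.29. For Rrm2 the difference of the label effects was -0.01 (SE 0.98), and for Cdc6 it was 0.02 (SE 1.04). A difference of several times these SEs could have been missed.

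Of 40 other replication and repair genes listed, 30 were in the table. In Dcaf1-deficient against young Treg edgeR called 0 of the 30, and DESeq2 called 6 higher and 5 lower, against the 6.16% and 5.97% of all genes given above. Clspn, a checkpoint mediator, was at 1.59 (DESeq2 adjusted p 0.00356), Uhrf1, which maintains DNA methylation at the fork, at 1.72 (DESeq2 adjusted p 0.0263), and Gmnn, the licensing inhibitor geminin, at 1.37 (DESeq2 adjusted p 0.0202). Of the damage kinases, Atm was lower at -0.69 (DESeq2 adjusted p 0.00029) and Prkdc at -0.71 (DESeq2 adjusted p 0.00963), whereas the checkpoint kinase Chek2 was higher at 0.94 (DESeq2 adjusted p 0.0204) and Chek1 was at 1.16 (DESeq2 adjusted p 0.188). Chek1 was at 17.8 and 16.8 CPM in Dcaf1-deficient Treg and 6.87 and 9.04 in young Treg, without overlap. The fork protection gene Timeless was at 41.7 ± 2.19 CPM in aged Tconv, against 80.2 ± 2.06 CPM in young Tconv (SD, n = 2 each). Its log2 difference was -0.94 with an SE of 0.17 (adjusted p by edgeR 0.0232). It was the 1 lower call of edgeR among the 30, with 0 higher, against 2.47% and 6.38% of all genes. It was not recomputed without single libraries.

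Of 13 listed E2F and pocket protein genes, 9 were in the table. E2f7, a repressor that is itself an E2F target, was at 12.9 and 11.8 CPM in Dcaf1-deficient Treg, 13.2 and 5.06 in aged Treg, with 1.98 and 4.37 in young Treg (log2 difference 1.96 with an SE of 0.72, adjusted p by edgeR 0.164), and E2f1, an activator, was at 28.2 and 30.5 CPM in Dcaf1-deficient Treg, 28.6 and 10.95 in aged Treg, with 6.45 and 14.4 in young Treg. Both were high in the libraries in which Cdc6 and Rrm2 were high. Tfdp2, an E2F partner, was higher in Dcaf1-deficient Treg than in Dcaf1-deficient Tconv by the test (log2 difference 1.05 with an SE of 0.19, adjusted p by edgeR 0.0433). It was the 1 call of edgeR on this list in that comparison, against 0.874% of all genes higher and 1.35% lower.

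**Figure D4:**
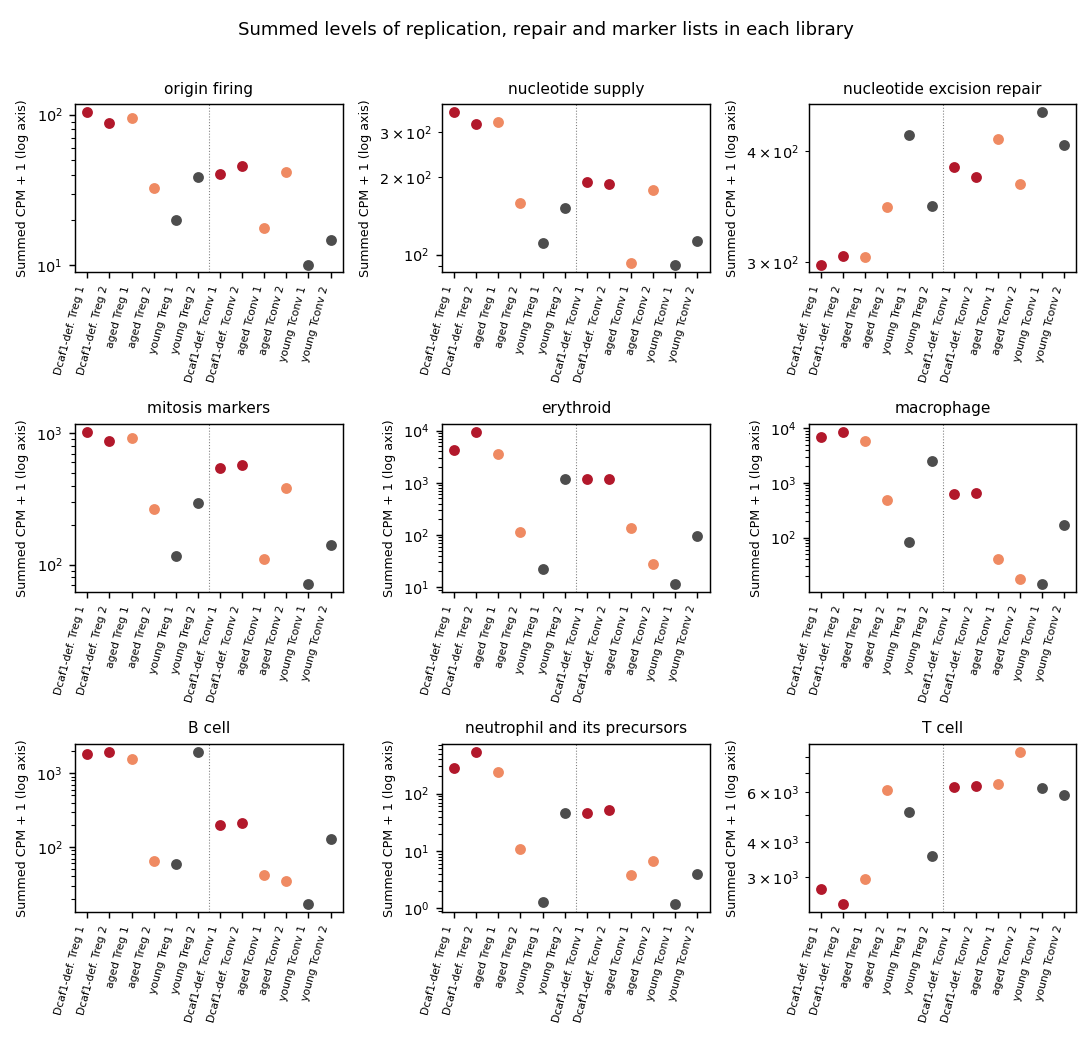
Summed CPM plus 1 (log axis) of 3 roles, the mitosis markers and 5 cell type marker lists in each library, with Dcaf1-deficient libraries in red, aged in orange and young in grey. The Dcaf1-deficient Treg libraries and aged Treg 1 are high for firing, nucleotide supply, mitosis, erythroid, macrophage and neutrophil lists and low for nucleotide excision repair and T cell lists.

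The mitosis markers, 7 of 12 of which were in the table, were high in the same libraries as the firing genes. Their sum was 1025 and 868 CPM in Dcaf1-deficient Treg, 917 and 265 in aged Treg, with 115 and 293 in young Treg. Top2a, which untangles replicated DNA, was at 504 and 406 CPM in Dcaf1-deficient Treg, 457 and 165 in aged Treg, with 63.5 and 157 in young Treg, and at 290.5 and 319 CPM in Dcaf1-deficient Tconv, 68.9 and 216 in aged Tconv, with 41.02 and 75.7 in young Tconv. All 7 had positive log2 fold changes in Dcaf1-deficient against young Treg, with a median of 2.27. EdgeR called 0 of them and DESeq2 5, against 0% and 6.16% of all genes called higher.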

How the data were processed

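RNA was sequenced in 12 libraries, 2 in each of 6 groups taken from the titles. Transcripts were quantified with Salmon 0.9.1, per the submitters' processing notes, and summed to genes as estimated counts that the authors deposited with no scaling (18358477 to 26852448 per library). The authors also deposited values scaled with DESeq2 on a log2 scale, whose exact transform is not given in the sources used here. Their build was mm10, per the submitters' processing notes.

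Rounded to whole numbers, these estimated counts were fitted in edgeR 4.0.16 (R 4.3.3; TMM, filterByExpr, quasi-likelihood test, 1 fit of 12 libraries with 6 residual degrees of freedom), which left 9495 genes. The Benjamini-Hochberg adjustment was applied over all genes of a comparison, for 11 comparisons, and calls were made at 0.05. DESeq2 1.42.0 on the counts and limma 3.58.1 on the deposited log2 values were alternatives, beside other scaling, filters, blocks and left-out libraries. Steps were tested on simulated data.

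The members and lists were chosen with earlier results of these data known. Genes named per comparison were up to 20 called members by adjusted p, the 8 with the smallest unadjusted p where under 5 were called, and per role the member with the highest level and that with the largest change in Dcaf1-deficient against young Treg; up to 4 called genes per other list. Some results that this rule names are not reported here. Further genes were named after their values were seen. Gene positions and exon overlaps came from GENCODE M21 (GRCm38), and promoters from RefSeq. The labels describe a kit without strand marking, so reads of overlapping opposite-strand genes cannot be told apart.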

Additional observations from a re-analysis of the deposited data

Results flagged for a closer look

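Ercc3, a helicase of the repair and transcription factor TFIIH, stood out because every Dcaf1-deficient library lay on one side of the young ones in Treg and on the other side in Tconv. It was at 86.1 and 85.7 CPM in Dcaf1-deficient Treg against 101 and 93.6 in young Treg, and at 105 and 109 in Dcaf1-deficient Tconv against 100.1 and 98.3 in young Tconv. The label effect in Treg minus that in Tconv was -0.29 on the log2 scale, with an edgeR adjusted p of 1.00, so the difference did not pass its test.

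Xrcc3, which acts in homologous recombination, had the opposite arrangement. It was at 18.4 and 19.7 CPM in Dcaf1-deficient Treg against 17.4 and 17.7 in young Treg, and at 17.5 and 14.3 in Dcaf1-deficient Tconv against 19.2 and 17.6 in young Tconv. The difference of the label effects was 0.33 on the log2 scale, with an edgeR adjusted p of 1.00.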

How the results depend on the processing

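With 2 libraries per group, counts of called members moved with the tool and with the libraries that set the spread. None of 88 named gene values changed sign over 1720 alternative values. These were chosen as called or by the smallest unadjusted p in the same libraries, which favours a stable sign. The median of the 67 genes did change sign in some comparisons with 1 library left out. It ran from -0.04 to 0.39 in aged against young Treg and from -0.01 to 0.51 in Dcaf1-deficient against aged Treg. DESeq2 called 12 members in Dcaf1-deficient against young Treg, 14 in aged against young Tconv, 3 in Dcaf1-deficient against young Tconv, 3 in Dcaf1-deficient against aged Tconv, 4 in young Treg against Tconv, 2 in aged Treg against Tconv and 11 in Dcaf1-deficient Treg against Tconv. Without young Treg 2 and aged Treg 1 together, edgeR called 20, 10, 7, 2 and 15 members in Dcaf1-deficient against young Treg, Dcaf1-deficient against aged Treg, aged against young Tconv, Dcaf1-deficient against aged Tconv and Dcaf1-deficient Treg against Tconv. The 7 in aged against young Tconv were 5 higher and 2 lower, against 9.6% and 5.08% of all genes in that fit. The 2 in Dcaf1-deficient against aged Tconv were 1 higher and 1 lower, against 5.22% and 7.64%. In both, the share of members called was below that of all genes. Shares for the comparisons that include Treg are given above. In aged against young Tconv, 2 members were called higher and 0 lower with a term for the title tag, against 3.58% and 1.02% of all genes. From the Tconv libraries alone 0 were called, against 5.37% of all genes higher and 1.37% lower. In Dcaf1-deficient Treg against Tconv, 0 were called with RLE scaling, without the low-count filter, by limma, with the replicate block and with the tag term. The cause was not tested.

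Leaving out 1 library at a time gave 0 to 1 calls in aged against young Treg, 0 to 1 in Dcaf1-deficient against young Treg, 0 to 5 in Dcaf1-deficient against aged Treg, 0 to 13 in aged against young Tconv, 0 to 3 in Dcaf1-deficient against aged Tconv, 0 to 1 in young Treg against Tconv, 0 to 3 in aged Treg against Tconv and 0 to 7 in Dcaf1-deficient Treg against Tconv; a lone library is assumed to vary like the other groups. Replicate numbers did not pair the samples in the same way over all groups. Deviations correlated at -0.69 to 0.75 over 15 pairs of groups, above 0.1 in 6. Between Treg and Tconv the correlation was 0.75 in young, 0.26 in aged and 0.05 in Dcaf1-deficient libraries. Treg and Tconv were compared as unpaired, and a block common to all groups cannot test a pairing within a condition. That replicate block gave 4 higher and 0 lower calls in aged against young Tconv, against 6.25% and 2.66% of all genes. RLE scaling moved the median of all genes by at most 0.043.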
